A study of Mus musculus with 11 samples.

Results

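The 37 genes described here carry out DNA replication or drive cells from G1 into S phase. They were taken from the gene symbols of a fixed list, all 37 were found among the 27179 genes counted, and all 37 passed the filter on low counts that left 14542 genes for testing. The tissue was the brain of mouse embryos at embryonic day 9.5, cut just behind the otic vesicle (the primordium of the inner ear), with 1 library of polyadenylated RNA per embryo. The embryos were C57BL/6 mice with mutations of p53, the tumour suppressor encoded by Trp53, and of Bim, the cell death protein encoded by Bcl2l11. There were 4 affected females (p53-/- Bim+/-), 4 control males (p53-/- Bim+/-) and 3 control females (p53+/+ Bim+/-), so every embryo carried the label Bim+/-. The labels do not say how the affected females were affected, and they give neither litter nor dissection date. By the labels, the affected females differed from the control males in sex and in being affected. From the control females they differed in p53 genotype and in being affected. These pairs of differences cannot be told apart within a comparison.

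DNA replication begins in G1, when the origin recognition complex, Cdc6 and Cdt1 load the ring of Mcm2 to Mcm7 onto DNA, a step called licensing. At the start of S phase Cdc45 and the GINS complex join the ring and turn it into the active helicase, and polymerases, the sliding clamp PCNA, its loader and the single-strand binding protein RPA follow. Cyclin D and cyclin E with their kinases free E2F transcription factors from the retinoblastoma protein Rb, and E2F factors activate many of the genes listed here. In the neural tube at this stage nearly all cells are dividing progenitors, and postmitotic neurons are only beginning to appear.

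Library totals lay between 8211942 and 11218682 counts, and levels are given as CPM after scaling between libraries by the TMM method. The progenitor markers Vim, Nes and Sox2 were present in every embryo, from 237 to 423, 243 to 393 and 99.3 to 169 CPM. Ccng1, a cyclin gene activated by p53, was at 21.8 to 24.5 CPM in affected females and 27.5 to 33.5 CPM in control males, against 74.7 to 93.8 CPM in control females, while whole-gene counts of Trp53 (107 to 139, 112 to 132 and 105 to 125 CPM) did not separate the genotypes. Bcl2l11 was at 38.2 to 47.3 CPM in affected females and 36.0 to 47.7 CPM in control males, against 71.0 to 82.1 CPM in control females. These Bcl2l11 ranges do not overlap those of the control females, although the labels give one Bim genotype throughout. That genotype rests on the labels alone, and the cause of the Bcl2l11 difference was not tested. A pair of libraries stood apart from their groups. Control female 1 had a summed level of 8 primitive erythroid markers of 513 CPM against 4200 and 3990 CPM in the other control females, and a median level of 20 postmitotic neuron markers of -0.33 against 0.65 and 0.86 (log2, centred on the mean of all embryos). Control male 4 was the highest of its group for all 6 genes Mcm2 to Mcm7. Because it was picked out by values of these genes, leaving it out widens their differences from control males by construction. Counts of calls are given with and without both libraries, and values of single genes only in places.

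The 37 genes were on balance higher in affected females. Against control females, 15 of the 37 genes rose (40.5%), Ccne2 fell, and 21 were not called, at an adjusted p below 0.05 by the quasi-likelihood test of edgeR, with p-values adjusted over all genes tested by the Benjamini-Hochberg method. Of all genes tested, 13.0% were called higher and 15.0% lower in that comparison (28.0% in either direction). The median log2 fold change of the 37 genes was 0.25, beside 0.00 over all genes, and 26 of 37 were positive. Against control males, 8 rose (21.6%), Ccne2 fell again, and 28 were not called, beside 9.51% of all genes called higher and 10.7% lower (20.2% in either direction). The median log2 fold change was 0.17 there, beside -0.02 over all genes. The comparisons share the 4 affected females, so they are not independent. Mcm2, Mcm3, Mcm4, Mcm5, Mcm7, Mcm10 and Cdt1 were called higher in both. Among fits that left out 1 library, these calls were kept against control females in 5 (Mcm2) to 11 (Mcm7) of 11. Against control males they were kept in 2 (Cdt1) to 9 (Mcm3) of 11, and for the others named in 6 of 11. Each of the 11 libraries was left out in turn from the fit of all groups. The 4 fits without a control male thus kept every embryo compared with control females. Likewise, the 3 fits without a control female kept every embryo compared with control males.

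The size of these counts depended on single libraries. So did the numbers called among all genes tested, whose ranges are given in the last section. With all libraries those numbers were 4073 against control females and 2940 against control males. Against control females, 16 calls became 5 when affected female 3 was left out, 6 when it was affected female 4, 5 when it was control female 2 and 4 when it was control female 3. Against control males, 9 calls became 1 when affected female 3 was left out and 2 when it was affected female 4. They became 1, 2 and 3 when control males 1, 2 and 3 were left out in turn, and 20 when control male 4 was. Without both control female 1 and control male 4, 19 genes rose and 2 (Ccne2 and E2f1) fell against control females. Orc1, Cdc6, Lig1 and Rrm1 were called higher there in addition. Against control males 17 rose and 4 fell, with Orc1, Cdc6, Mcm6, Fen1, Rrm1, Rrm2, Chaf1a, Chaf1b and Slbp called higher in addition. Control male 4 was picked out by its Mcm2 to Mcm7 values, so these larger counts are no support for the calls. No gene changed direction among the 25 calls under any of these omissions.

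**Figure D1:**
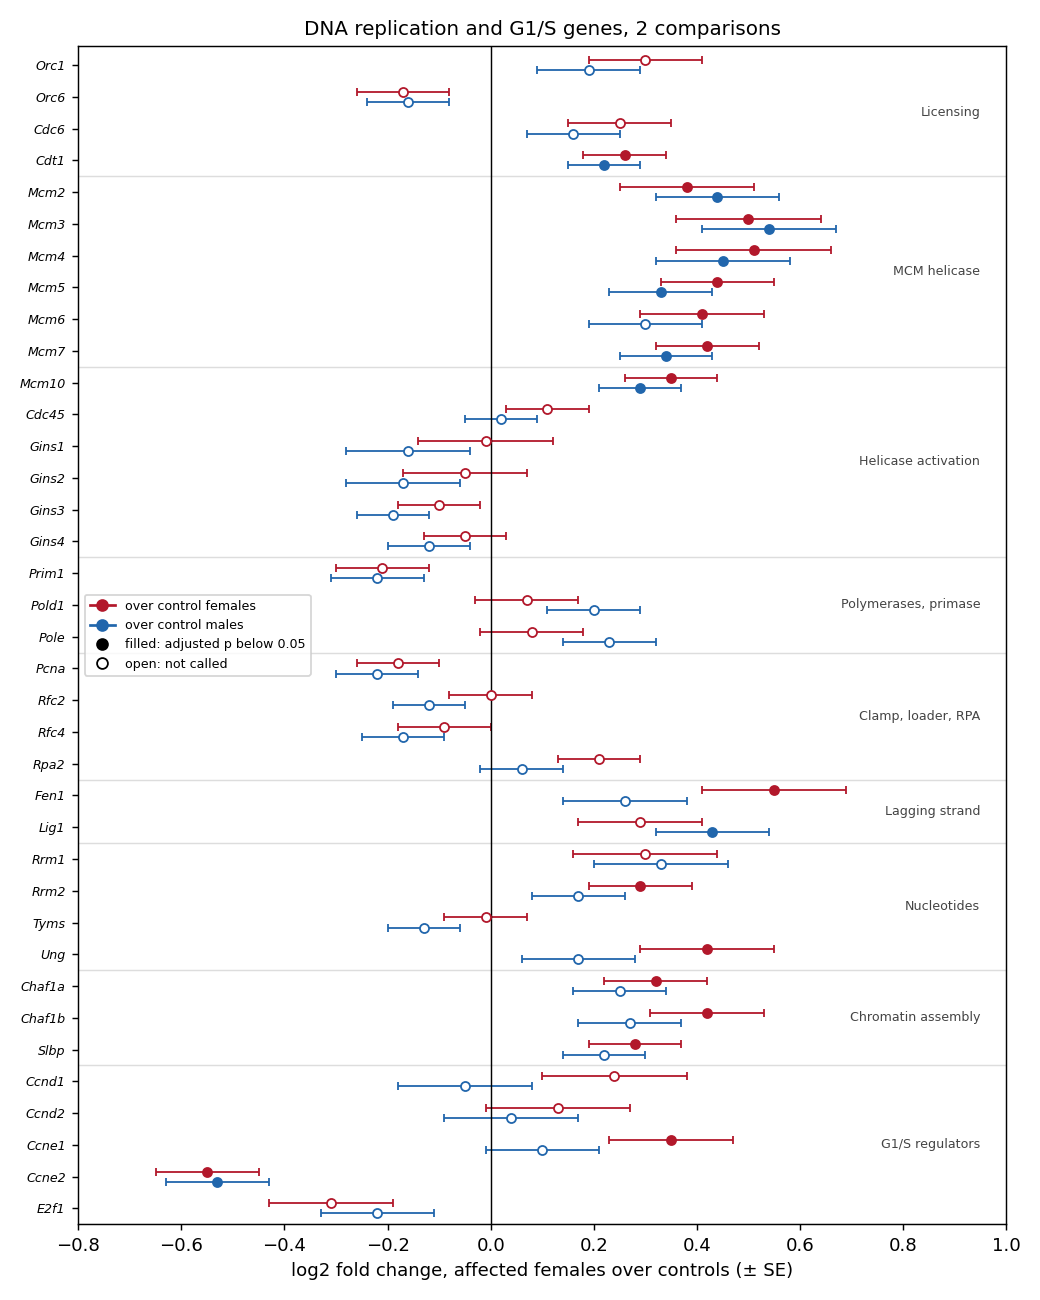
Log2 fold change (x axis, ± SE) of each of the 37 genes (rows, grouped by role) in 4 affected females over 3 control females (red) and over 4 control males (blue), with filled points for an adjusted p below 0.05 by edgeR. The 6 genes Mcm2 to Mcm7 lie between 0.30 and 0.54, Ccne2 lies at -0.55 and -0.53, and the GINS genes, Pcna, Rfc2, Rfc4 and Tyms lie between -0.22 and 0.00, of which Gins1 (0.09), Gins2 (0.07), Rfc2 (0.03) and Rfc4 (0.05) are positive against control females with length and GC trends removed.

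The genes of the MCM ring, the motor that unwinds DNA ahead of the polymerases, rose as a group. All 6 rose against control females, with a median log2 fold change of 0.43 (0.38 to 0.51), and 5 of 6 rose against control males, with a median of 0.39 (0.30 to 0.54). The genes lie apart in the genome (mm10): Mcm2 on chromosome 6 at 88883474 to 88898780, Mcm3 on chromosome 1 at 20802966 to 20820312 and Mcm4 on chromosome 16 at 15623897 to 15637400. Mcm5 lies on chromosome 8 at 75109468 to 75128439, Mcm6 on chromosome 1 at 128331575 to 128359705 and Mcm7 on chromosome 5 at 138164583 to 138172111.

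Because these genes moved together, their promoters were read for shared words. RefSeq windows of GRCm38.p6, from 250 bases before to 50 bases after a gene's start, held 28 of the 37 genes. There was no window for Ccnd1, Ccnd2, Ccne2, Gins1, Gins2, Gins4, Mcm4, Pole and Rfc2. Any of the E2F words TTTCCCGC, TTTCGCGC, TTTGGCGC and TTTGCCGC on either strand was present in 4 of 5 MCM genes (Mcm3, Mcm5, Mcm6 and Mcm7) and in 10 of the 28 genes (35.7%), against 4.73% of the 10873 tested genes with a window and 2.6% of all 27025 genes with one. The word was no more frequent among genes called higher against control females (5 of 14) than among the rest (5 of 14). The CCAAT word, which is short and common, was in all 5 MCM windows and in 60.7% of the 28 genes, against 43.3% of tested genes and 41.1% of all genes. Mcm5 and Mcm6 are printed, and each holds a run of 12 bases in which E2F words on opposite strands overlap. Of Mcm5, Mcm6, Mcm7, Cdc6, Orc1 and Gins3, they were the genes with an E2F word in an unbroken stretch long enough to print. The stretches lie before the gene's start and outside annotated exons, 5′ to 3′ on the strand of the gene, with the E2F words in capitals.
Mcm5 promoter, mm10 chr8:75109329-75109467, plus strand: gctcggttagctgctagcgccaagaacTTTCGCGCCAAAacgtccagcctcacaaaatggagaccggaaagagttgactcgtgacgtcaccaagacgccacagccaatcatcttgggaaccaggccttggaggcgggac
Mcm6 promoter, mm10 chr1:128359706-128359885, minus strand: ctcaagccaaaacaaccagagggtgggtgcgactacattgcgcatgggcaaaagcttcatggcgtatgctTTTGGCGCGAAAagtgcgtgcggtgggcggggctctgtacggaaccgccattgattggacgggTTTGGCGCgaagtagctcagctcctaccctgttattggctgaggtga
In Mcm5 the run TTTCGCGCCAAA begins 112 bases before the start of the gene given above, and 153 bases before the start at 75109509 that defines its RefSeq window. In Mcm6, where both starts are the same base, the run TTTGGCGCGAAA begins 110 bases and a further TTTGGCGC 47 bases before it. A match is a description of the letters and was not tested as a binding site.

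Mcm2 had 195, 200, 228 and 217 CPM in affected females, 138, 128, 159 and 196 CPM in control males, and 181, 150 and 155 CPM in control females. Its lowest affected female lay just under control male 4 and above every other control. The log2 fold change was 0.38 (SE 0.13, adjusted p = 0.0392, edgeR) against control females and 0.44 (SE 0.12, adjusted p = 0.0224, edgeR) against control males.

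Mcm3 had 428, 451, 509 and 494 CPM in affected females, 292, 259, 325 and 418 CPM in control males, and 384, 315 and 303 CPM in control females. Every affected female was above every control, the nearest being control male 4. Its fold changes were among the largest of the group, 0.50 (SE 0.14, adjusted p = 0.0207, edgeR) against control females and 0.54 (SE 0.13, adjusted p = 0.0159, edgeR) against control males, on the log2 scale. The gene for a partner in the ring, Mcm5, had 386, 395, 452 and 455 CPM in affected females, 329, 293, 332 and 388 CPM in control males, and 337, 302 and 291 CPM in control females. Affected female 1 lay just below control male 4. The log2 fold change of Mcm5 was 0.44 (SE 0.11, adjusted p = 0.0105, edgeR) against control females and 0.33 (SE 0.10, adjusted p = 0.0319, edgeR) against control males.

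Mcm4, Mcm6 and Mcm7 form the core of the ring. Mcm4 had 430, 457, 540 and 515 CPM in affected females, 316, 294, 362 and 451 CPM in control males, and 405, 316 and 305 CPM in control females. Mcm6 had 559, 609, 684 and 664 CPM in affected females, 494, 439, 507 and 605 CPM in control males, and 525, 451 and 442 CPM in control females. In both genes affected females 3 and 4 were the highest of all 11 embryos, and control male 4 reached into the range of the affected females. Mcm7 had 198, 195, 233 and 217 CPM in affected females, 153, 155, 167 and 191 CPM in control males, and 148, 169 and 157 CPM in control females, with no overlap between affected females and either control group. The log2 fold changes against control females were 0.51 (SE 0.15, adjusted p = 0.0206, edgeR) for Mcm4, 0.41 (SE 0.12, adjusted p = 0.0205, edgeR) for Mcm6 and 0.42 (SE 0.10, adjusted p = 0.0098, edgeR) for Mcm7. Against control males they were 0.45 (SE 0.13, adjusted p = 0.0315, edgeR) for Mcm4 and 0.34 (SE 0.09, adjusted p = 0.0223, edgeR) for Mcm7, whereas Mcm6 stood at 0.30 (SE 0.11, adjusted p = 0.0618, edgeR) and was not called.

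**Figure D2:**
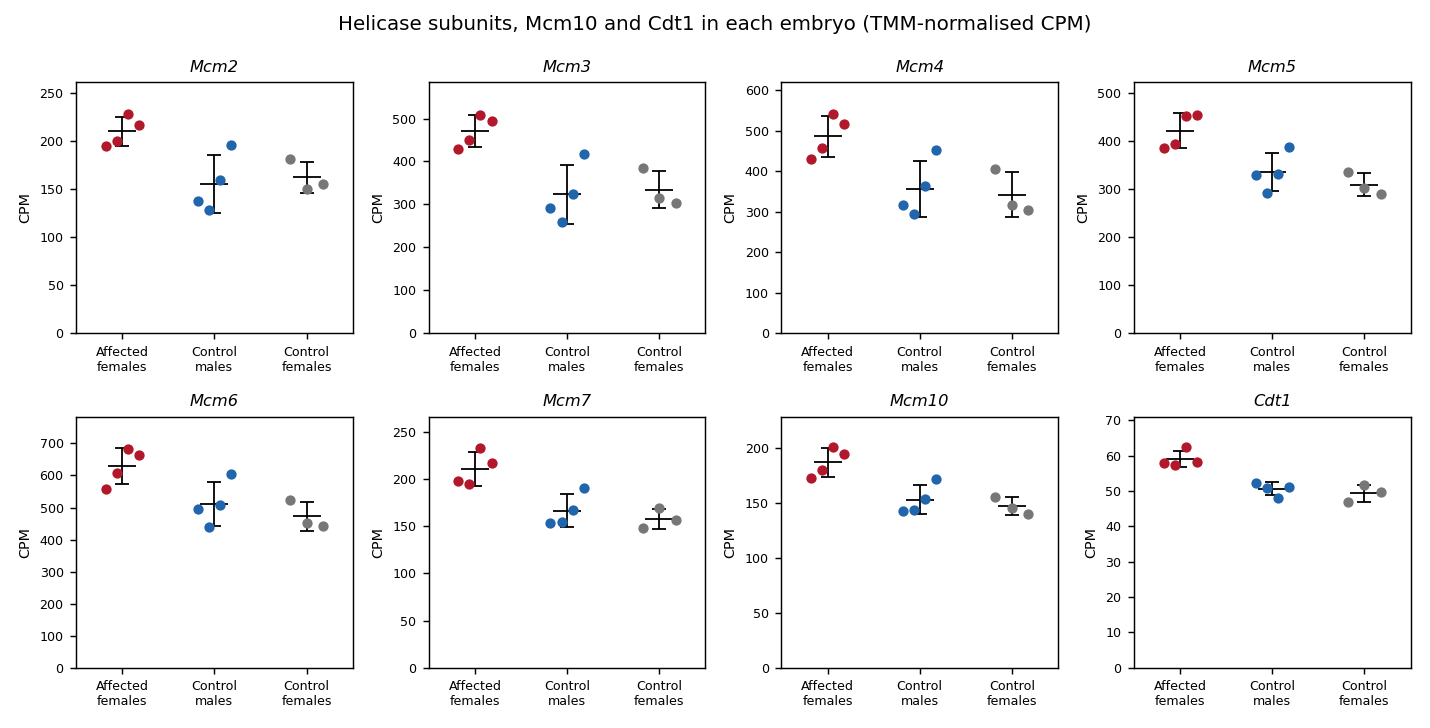
TMM-normalised CPM (y axis, from 0) of Mcm2 to Mcm7, Mcm10 and Cdt1 in each of 4 affected females, 4 control males and 3 control females, with the mean and SD of each group as bars. In Mcm3, Mcm7, Mcm10 and Cdt1 all affected females lie above all controls, and in Mcm2, Mcm4, Mcm5 and Mcm6 the highest control male, replicate 4, reaches the lowest affected female or more.

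The 6 subunits sit in the ring in equal number, yet their transcripts did not have equal levels. Per kilobase of the deposited gene length, the mean level in affected females was 217 RPKM for Mcm6, 163 RPKM for Mcm3, 135 RPKM for Mcm4, 123 RPKM for Mcm5, 87.9 RPKM for Mcm7 and 62.3 RPKM for Mcm2. SDs ran from 4.55 RPKM for Mcm2 to 19.5 RPKM for Mcm6, so Mcm4 and Mcm5 did not differ beyond their spread of 14.1 and 10.6 RPKM. The means in control males were 176 RPKM for Mcm6, 112 RPKM for Mcm3, 99.2 RPKM for Mcm4, 98.0 RPKM for Mcm5, 69.4 RPKM for Mcm7 and 46.1 RPKM for Mcm2, the same order.

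Among the genes that load the ring, only Cdt1 passed the test, although Orc1 and Cdc6 had similar fold changes against control females. Cdt1 (chromosome 8, 122568015 to 122573130), which brings the ring to the origin, had 57.9, 57.3, 62.5 and 58.3 CPM in affected females, 52.3, 50.9, 48.1 and 51.2 CPM in control males, and 46.9, 51.7 and 49.6 CPM in control females. The affected females were above every control. The log2 fold change was 0.26 (SE 0.08, adjusted p = 0.0272, edgeR) against control females and 0.22 (SE 0.07, adjusted p = 0.0429, edgeR) against control males. These calls of Cdt1 were kept in 6 of 11 and 2 of 11 fits that left out 1 library. Orc1, the largest subunit of the origin recognition complex, stood at 0.30 (SE 0.11, adjusted p = 0.0539, edgeR) and 0.19 (SE 0.10, adjusted p = 0.176, edgeR) in the same comparisons. Cdc6, the loading ATPase, stood at 0.25 (SE 0.10, adjusted p = 0.0697, edgeR) and 0.16 (SE 0.09, adjusted p = 0.223, edgeR). With limma voom and sample weights, Orc1 was called higher in both comparisons (adjusted p = 0.00128 and 0.0232, limma voom). Cdc6 was called higher in both as well (adjusted p = 0.00165 and 0.0198, limma voom). Orc6, with 128 to 143 CPM in affected females, 137 to 167 CPM in control males and 138 to 160 CPM in control females, had negative log2 fold changes of -0.17 (SE 0.09) and -0.16 (SE 0.08), neither of them called.

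The transcript of geminin, the protein that binds Cdt1 and stops relicensing in S and G2 phase, was called lower in both comparisons. Gmnn had 101, 101, 84.8 and 72.3 CPM in affected females, 131, 107, 120 and 96.7 CPM in control males, and 127, 136 and 149 CPM in control females. It fell by 0.61 on the log2 scale against control females (SE 0.13, adjusted p = 0.00492, edgeR) and by 0.34 against control males (SE 0.12, adjusted p = 0.0498, edgeR). The call against control males was kept in 4 of 11 fits that left out 1 library, and with length and GC trends removed it was lost, at -0.20 (SE 0.08, adjusted p = 0.0909, edgeR). The count ratio of Cdt1 to Gmnn, chosen after the values were seen, was 0.571, 0.567, 0.737 and 0.807 in affected females, 0.399, 0.474, 0.400 and 0.529 in control males, and 0.370, 0.381 and 0.332 in control females. Gmnn is short, at 977 bases, and the ratio was neither tested nor corrected for length.

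The genes that turn the loaded ring into a working helicase split. Mcm10, which acts when the helicase is set in motion, had 173, 180, 201 and 195 CPM in affected females, 143, 144, 154 and 172 CPM in control males, and 156, 146 and 140 CPM in control females. The groups did not overlap, although the lowest affected female was only just above control male 4. Mcm10's log2 fold change was 0.35 (SE 0.09, adjusted p = 0.0143, edgeR) against control females and 0.29 (SE 0.08, adjusted p = 0.0278, edgeR) against control males. Cdc45 and Gins1 to Gins4, which form the active helicase with the ring, did not pass the test in either comparison. Cdc45 was at 86.5 to 94.6 CPM in affected females, 81.9 to 94.5 CPM in control males and 81.6 to 85.6 CPM in control females, at log2 fold changes of 0.11 (SE 0.08) against control females and 0.02 (SE 0.07) against control males.

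The log2 fold changes of the 4 GINS genes ran from -0.10 to -0.01 against control females and from -0.19 to -0.12 against control males. Gins1, Gins2 and Gins4 are short, and with length and GC trends removed they stood at 0.09 (SE 0.11), 0.07 (SE 0.09) and 0.00 (SE 0.07) against control females, and at -0.03 (SE 0.11), -0.03 (SE 0.08) and -0.04 (SE 0.07) against control males. On that scale Mcm2 to Mcm7 lay between 0.33 and 0.50 against control females and between 0.29 and 0.53 against control males. Gins3 had the narrowest spread, with 34.9 to 39.0 CPM in affected females, 42.1 to 44.9 CPM in control males and 39.6 to 40.9 CPM in control females, and its affected females lay below both control groups. Its log2 fold change against control males was -0.19 (SE 0.07, adjusted p = 0.0739, edgeR). Per length, GINS transcripts were less abundant than any MCM transcript in affected females, at 49.0 ± 2.47 RPKM for Gins4, 42.0 ± 4.12 RPKM for Gins1, 34.0 ± 5.27 RPKM for Gins2 and 15.6 ± 0.779 RPKM for Gins3 (SD, n = 4). Gins1 and Gins2 did not differ beyond their spread in that order. Gse1 on the other strand shares 67.3% of the exon bases annotated for Gins2, so that its reads may be mixed with those of Gse1.

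The summed counts of Mcm2 to Mcm7, divided by those of Cdc45 and Gins1 to Gins4, were 8.00, 7.75, 9.55 and 9.61 in affected females, 5.48, 5.70, 6.14 and 7.41 in control males, and 7.39, 6.08 and 5.74 in control females. Every affected female exceeded every control on this ratio, which was chosen after the values were seen, was not tested, and includes the short GINS genes without correction for length.

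Of the fork genes among the 37, which are Pold1, Pole, Prim1, Pcna, Rfc2, Rfc4 and Rpa2, none passed the test in either comparison. Outside the 37, Pold2 and Rfc1, named after their values were seen, were called higher in both. Pold2 had 36.3 to 42.8 CPM in affected females, 23.2 to 32.2 CPM in control males and 25.4 to 27.3 CPM in control females. Rfc1 had 290 to 326, 189 to 296 and 220 to 257 CPM in the same groups. Leaving out 1 library, Pold2 calls were kept in 11 (control females) and 9 (control males) of 11 fits, and Rfc1 calls in 6 and 6. Pold1 and Pole, the catalytic subunits of the polymerases of the lagging and leading strand, had log2 fold changes of 0.07 (SE 0.10) and 0.08 (SE 0.10) against control females, and 0.20 (SE 0.09, adjusted p = 0.106, edgeR) and 0.23 (SE 0.09, adjusted p = 0.0774, edgeR) against control males. Prim1, the primase that starts each new strand, was at 111 to 114 CPM in affected females, 113 to 144 CPM in control males and 122 to 135 CPM in control females. Its log2 fold changes, -0.21 (SE 0.09, adjusted p = 0.0982, edgeR) and -0.22 (SE 0.09, adjusted p = 0.0746, edgeR), were negative in both comparisons, and with length and GC trends removed they were -0.12 (SE 0.09) and -0.11 (SE 0.08).

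Pcna, the sliding clamp and a common marker of proliferating cells, was not higher in affected females. It had 143 to 165 CPM in affected females, 173 to 198 CPM in control males and 165 to 183 CPM in control females, and its affected females lay below the control males without overlap. The log2 fold changes were -0.18 (SE 0.08, adjusted p = 0.123, edgeR) against control females and -0.22 (SE 0.08, adjusted p = 0.057, edgeR) against control males. Pcna is short, at 1260 bases, and with length and GC trends removed it stood at -0.07 (SE 0.07, adjusted p = 0.425, edgeR) and -0.10 (SE 0.06, adjusted p = 0.272, edgeR). Without control female 1 and control male 4, Pcna, Prim1 and E2f1 were called lower against control males. The clamp loader genes Rfc2 and Rfc4 stood at 0.00 (SE 0.08) and -0.09 (SE 0.09) against control females, and at -0.12 (SE 0.07) and -0.17 (SE 0.08) against control males. Rpa2, the middle subunit of RPA, was at 122 to 127 CPM in affected females, 104 to 130 CPM in control males and 106 to 108 CPM in control females, with log2 fold changes of 0.21 (SE 0.08, adjusted p = 0.0663, edgeR) and 0.06 (SE 0.08). The summed counts of Mcm2 to Mcm7 relative to Pcna were 13.6, 14.0, 17.3 and 17.9 in affected females, 8.69, 9.07, 10.2 and 13.0 in control males, and 10.8, 10.3 and 9.18 in control females, a ratio also chosen after the values were seen and not corrected for length.

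The genes that finish lagging strand fragments were each called in 1 comparison. Fen1, the nuclease that trims the flap, had 115, 116, 137 and 127 CPM in affected females, 97.1, 87.7, 106 and 122 CPM in control males, and 63.9, 91.9 and 97.2 CPM in control females. Control female 1 was by far the lowest. Fen1 rose by 0.55 against control females (SE 0.14, adjusted p = 0.0113, edgeR) and stood at 0.26 against control males (SE 0.12, adjusted p = 0.135, edgeR), on the log2 scale. The call was kept in all 22 alternatives, with values between 0.39 and 0.67. An antisense gene, Gm10143, shares 78.8% of the exon bases of Fen1, and no strand setting of the counting is known here, so that their reads may be mixed.

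Lig1, the ligase that seals the nick, had 258, 281, 317 and 298 CPM in affected females, 194, 200, 208 and 253 CPM in control males, and 276, 222 and 211 CPM in control females. Its log2 fold change was 0.43 (SE 0.11, adjusted p = 0.0181, edgeR) against control males, with no overlap, and it stood at 0.29 (SE 0.12, adjusted p = 0.0753, edgeR) against control females, where control female 1 lay within the range of the affected females. The test of the difference between both comparisons, which is that of control males against control females, called neither Fen1 nor Lig1.

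Among the genes of nucleotide supply and uracil removal, Rrm2 and Ung rose against control females and none passed against control males. Rrm2, the small subunit of ribonucleotide reductase that sets the supply of deoxynucleotides, had 583, 598, 651 and 664 CPM in affected females, 545, 492, 552 and 634 CPM in control males, and 497, 510 and 523 CPM in control females. It was the most abundant of the 37 transcripts per length, at 286 ± 18.1 RPKM in affected females (SD, n = 4), and its log2 fold change was 0.29 (SE 0.10, adjusted p = 0.0428, edgeR) against control females and 0.17 (SE 0.09, adjusted p = 0.198, edgeR) against control males. Rrm1, the large subunit, had 455 to 555 CPM in affected females, 341 to 534 CPM in control males and 397 to 426 CPM in control females, and stood at 0.30 (SE 0.14, adjusted p = 0.113, edgeR) and 0.33 (SE 0.13, adjusted p = 0.076, edgeR). The Rrm2 call against control females was kept in 3 of 11 fits that left out 1 library.

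Ung, the glycosylase that removes uracil from DNA, had 42.7, 48.4, 54.2 and 49.5 CPM in affected females, 45.5, 33.3, 45.9 and 48.8 CPM in control males, and 33.0, 38.3 and 37.5 CPM in control females. Affected females and control females did not overlap, while affected females and control males did. Its log2 fold change was 0.42 (SE 0.13, adjusted p = 0.0233, edgeR) against control females and 0.17 (SE 0.11, adjusted p = 0.297, edgeR) against control males. Tyms, thymidylate synthase, stayed between 92.4 and 95.4 CPM in affected females, 95.5 and 113 CPM in control males, and 88.7 and 98.4 CPM in control females, and its log2 fold changes were -0.01 (SE 0.08) and -0.13 (SE 0.07). Tyms and Pcna have annotated pseudogenes, and reads shared with them may have been lost or moved in the counting.

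All 3 genes of chromatin assembly behind the fork rose against control females, with no overlap, and none passed against control males. Chaf1a, the large subunit of chromatin assembly factor 1, which places histones on new DNA, had 161, 156, 191 and 180 CPM in affected females, 132, 142, 137 and 168 CPM in control males, and 129, 141 and 143 CPM in control females. The log2 fold change was 0.32 (SE 0.10, adjusted p = 0.0309, edgeR) against control females and 0.25 (SE 0.09, adjusted p = 0.068, edgeR) against control males. The gene Ubxn6 on the other strand shares 52.5% of the exon bases annotated for Chaf1a.

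Chaf1b, the middle subunit, had 91.1, 88.5, 100 and 97.6 CPM in affected females, 77.1, 70.4, 75.1 and 89.5 CPM in control males, and 59.8, 72.0 and 79.8 CPM in control females. Its log2 fold change was 0.42 (SE 0.11, adjusted p = 0.0126, edgeR) against control females, a call kept in all 22 alternatives, and it stood at 0.27 (SE 0.10, adjusted p = 0.0575, edgeR) against control males. Slbp, which binds the stem-loop of histone messengers in S phase, had 202, 212, 223 and 212 CPM in affected females, 182, 164, 178 and 205 CPM in control males, and 188, 166 and 171 CPM in control females. Only control male 4 reached into the range of the affected females. Slbp stood at 0.28 (SE 0.09, adjusted p = 0.0329, edgeR) and 0.22 (SE 0.08, adjusted p = 0.0697, edgeR).

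Of the E-type cyclins, which activate Cdk2 at the G1/S transition, Ccne2 fell in both comparisons, and Ccne1 rose against control females and did not pass against control males. Ccne2 (chromosome 4, 11190433 to 11204779) had 85.7, 106, 89.9 and 78.8 CPM in affected females, 133, 135, 139 and 114 CPM in control males, and 125, 126 and 143 CPM in control females. Every affected female was below every control. Ccne2 fell by 0.55 on the log2 scale against control females (SE 0.10, adjusted p = 0.00397, edgeR) and by 0.53 against control males (SE 0.10, adjusted p = 0.00825, edgeR). It had the smallest adjusted p of the 37 genes in both comparisons and kept its call in all 22 alternatives of each. With length and GC trends removed the values were -0.33 (SE 0.09, adjusted p = 0.0182, edgeR) and -0.36 (SE 0.09, adjusted p = 0.0169, edgeR). For control males against control females the log2 fold change was -0.01 (SE 0.10). Of its annotated exon bases, 17.4% are shared with Ints8 on the other strand.

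Ccne1 (chromosome 7, 38097984 to 38107490) had 140, 138, 150 and 156 CPM in affected females, 138, 104, 140 and 160 CPM in control males, and 126, 106 and 112 CPM in control females. Its affected females were above all control females but not above the control males. The log2 fold change was 0.35 (SE 0.12, adjusted p = 0.0424, edgeR) against control females, kept in 3 of 11 fits that left out 1 library, and 0.10 (SE 0.11, adjusted p = 0.507, edgeR) against control males. The count ratio of Ccne1 to Ccne2, chosen after the values were seen, was 1.63, 1.31, 1.66 and 1.98 in affected females, 1.04, 0.767, 1.01 and 1.41 in control males, and 1.01, 0.836 and 0.785 in control females. Only control male 4 reached the range of the affected females.

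The D-type cyclins, which act earlier in G1, did not pass the test. Ccnd1 had 342 to 438 CPM in affected females, 306 to 488 CPM in control males and 276 to 351 CPM in control females, and Ccnd2 had 830 to 1030, 733 to 1120 and 768 to 880 CPM in the same groups. Control male 4 was the highest embryo for both. E2f1, an activating E2F factor and itself an E2F target, had 33.8 to 35.5 CPM in affected females, 33.9 to 45.3 CPM in control males and 34.8 to 47.9 CPM in control females. It stood at -0.31 (SE 0.12, adjusted p = 0.0681, edgeR) against control females and -0.22 (SE 0.11, adjusted p = 0.172, edgeR) against control males. Against control females E2f1 was called lower with limma voom and sample weights, at -0.42 (SE 0.09, adjusted p = 0.000868, limma voom). It was also called lower there without control female 1 and control male 4, at -0.43 (SE 0.10, adjusted p = 0.00321, edgeR). Its 4 affected females lay within 2 CPM of each other, and control female 1 and control male 4 were at 34.8 and 33.9 CPM.

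**Figure D3:**
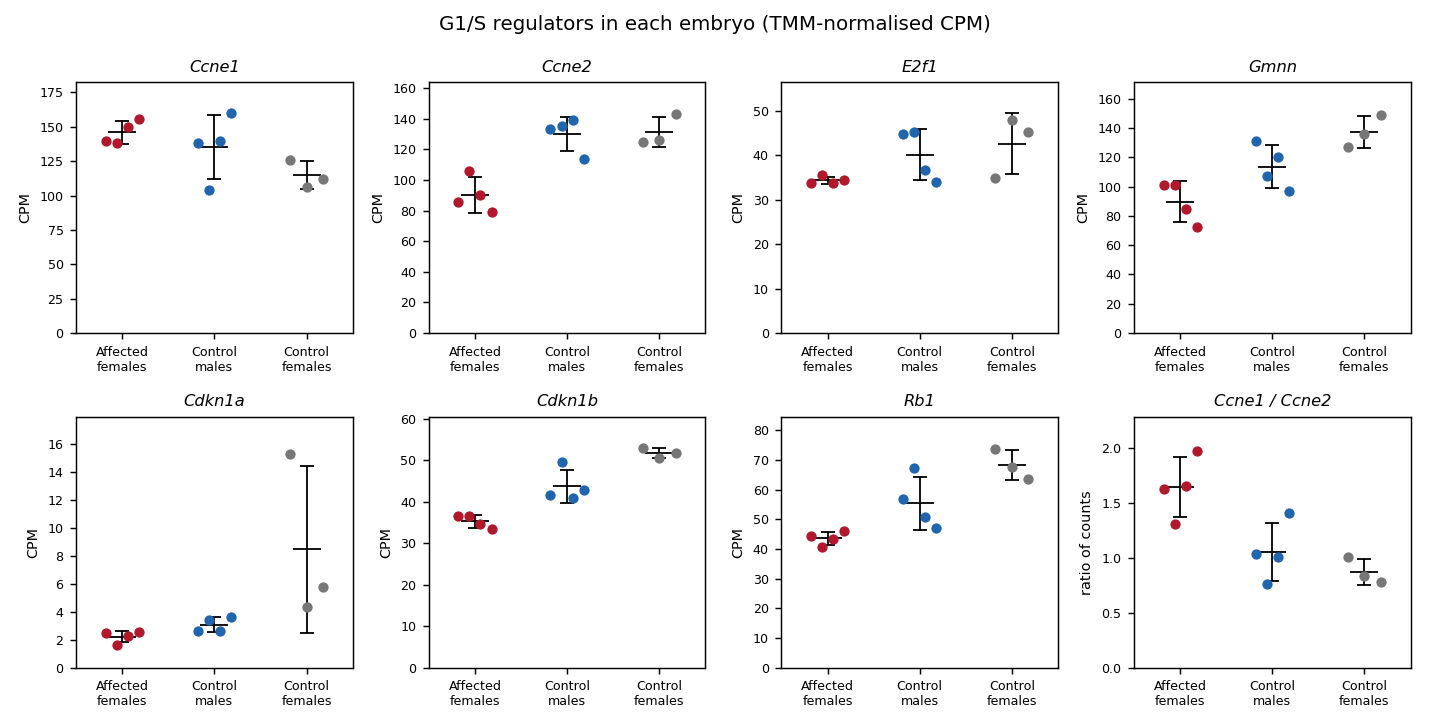
TMM-normalised CPM (y axis, from 0) of 7 regulators of the G1/S transition, and the count ratio of Ccne1 to Ccne2, in each of 4 affected females, 4 control males and 3 control females, with the mean and SD of each group as bars. Ccne2 lies between 78.8 and 106 CPM in affected females, below every control, and the high Cdkn1a value of 15.3 CPM belongs to control female 1.

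Between control males and control females, which differ in both sex and p53 genotype, no gene of the set passed the test. None of the 37 was called by edgeR, beside 0.144% of all genes tested (0.0481% higher and 0.0963% lower). None reached an unadjusted p below 0.05, the smallest being 0.0526 for Fen1 (log2 fold change 0.29, SE 0.14), and DESeq2 called 0 as well. With limma voom and sample weights, Rpa2 and Ccne1 were called higher and E2f1 lower in control males. The log2 fold changes ran from -0.15 to 0.29 with a median of 0.08, beside 0.00 over all genes, and 28 of 37 were positive. Gins3 and Rfc2 lay above the control females in all control males, 2 of 37 genes, beside 2.99% of all genes with ranges that do not overlap in that direction and 2.54% in the other. For Mcm2 to Mcm7 the values lay between -0.06 and 0.11, with SEs of 0.10 to 0.14.

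By the ranges alone, 20 of the 37 genes had all affected females above all control females and 3 (Ccne2, Prim1 and Gins3) all below, beside 20.2% and 20.0% of all genes tested. Against control males, Mcm3, Mcm7, Mcm10, Cdt1 and Lig1 had all affected females above, and Ccne2, Gins3, Pcna, Rfc4 and Tyms all below, 5 genes each way, beside 10.1% and 9.43% of all genes. The counts against control males were therefore near those of genes at large in both directions, and control male 4 was the embryo that closed the gap for Mcm2, Mcm4, Mcm5 and Mcm6.

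**Figure D4:**
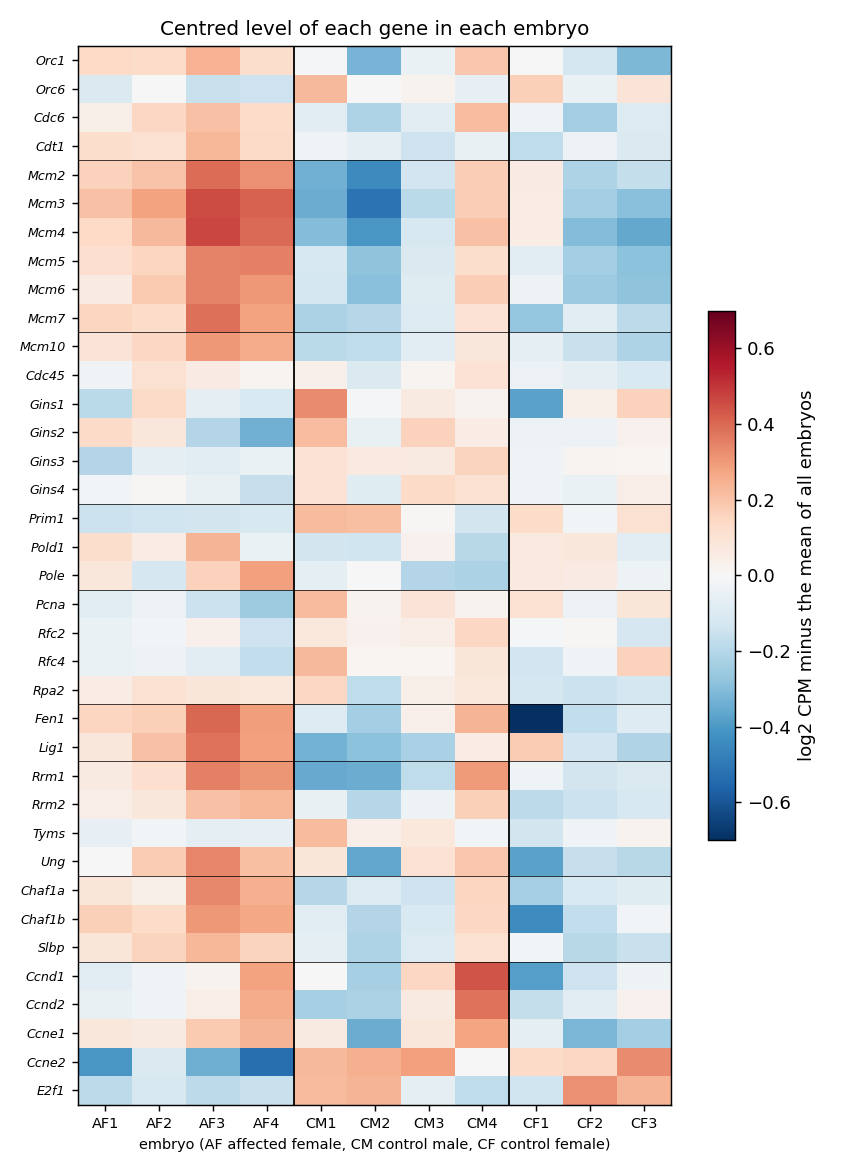
Level of each of the 37 genes (rows, by role) in each embryo (columns: AF affected female, CM control male, CF control female) as log2 CPM minus the mean of all embryos, red higher and blue lower. The MCM rows are red in all 4 affected females and in CM4, strongest in AF3 and AF4, and mostly blue in CM1 to CM3, CF2 and CF3, while the Ccne2 row is blue in all 4 affected females and near its mean or red in every control.

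Within groups the embryos were not alike. The median of the 6 MCM genes (log2, centred on the mean of all embryos) was 0.14, 0.19, 0.39 and 0.34 in affected females, -0.26, -0.35, -0.10 and 0.17 in control males, and 0.01, -0.24 and -0.28 in control females. Control male 4 thus lay between affected females 1 and 2. Marker lists of other cell types differed between embryos too. Of 10 surface ectoderm markers, 9 rose against control females and 8 against control males, and their medians were 0.54, 0.36, 0.60 and 0.29 in affected females, -0.20, -0.45, -0.21 and 0.04 in control males, and 0.20, -0.45 and -0.58 in control females. Their summed level was 317 to 363 CPM in affected females, 181 to 259 CPM in control males and 165 to 294 CPM in control females.

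Of 20 postmitotic neuron markers, 15 fell against control females and 13 against control males, and none rose. Their medians were -0.44, -0.80, -0.77 and -0.33 in affected females, 0.10, 0.90, 0.07 and 0.10 in control males, and -0.33, 0.65 and 0.86 in control females, with summed levels of 251 to 305, 371 to 606 and 294 to 616 CPM. Of 8 neural crest markers, 6 rose and 1 fell against control females, and 2 rose and 1 fell against control males, with summed levels of 361 to 428 CPM in affected females, 310 to 346 CPM in control males and 285 to 298 CPM in control females. Of 10 neural progenitor markers, 2 rose and 3 fell against control females and 1 fell against control males, with summed levels of 938 to 1210, 990 to 1310 and 975 to 1370 CPM. Primitive erythroid markers (1060 to 2180, 2020 to 3490 and 513 to 4200 CPM) were not called in either comparison. Of 6 macrophage markers, Adgre1, Aif1, Fcgr1 and Ptprc were below the filter and at 0 in some embryos, Csf1r was called lower against control females (log2 fold change -2.65, SE 0.75, adjusted p = 0.0191, edgeR) and Cd68 against control males (-1.30, SE 0.40, adjusted p = 0.0344, edgeR). Their summed level was 2.80 to 4.42 CPM in affected females, 4.54 to 14.8 CPM in control males and 3.49 to 12.6 CPM in control females. Of 10 head mesenchyme markers, 2 rose against control females and 1 against control males, with summed levels of 336 to 419, 321 to 429 and 310 to 378 CPM. Of 8 endothelial markers, 1 fell against control females, with summed levels of 257 to 320, 238 to 306 and 284 to 292 CPM. Of all genes tested, 13.0% rose and 15.0% fell against control females, and 9.51% and 10.7% against control males. The single endothelial call, and the single head mesenchyme and progenitor calls against control males, are near these shares. In bulk tissue, fewer cells of a type and less RNA per cell cannot be told apart. The part of these marker differences in the values of the replication genes was not tested.

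**Figure D5:**
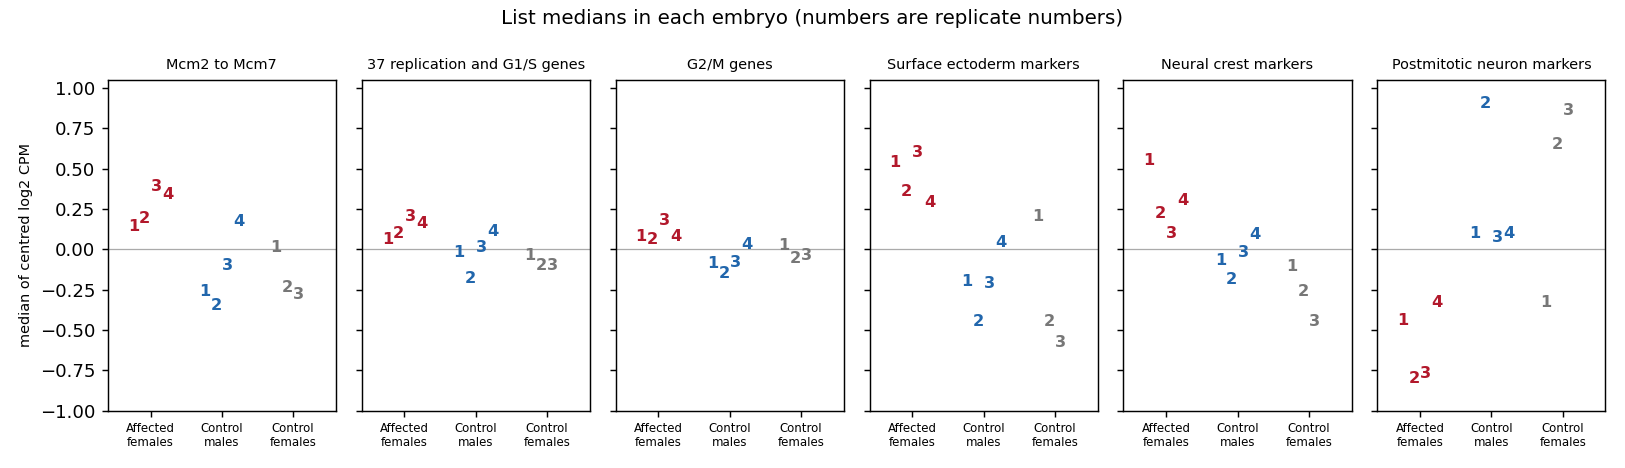
Median over the genes of a list of log2 CPM minus the mean of all embryos (y axis), one digit per embryo giving its replicate number, for affected females (red), control males (blue) and control females (grey). Affected females 3 and 4 are highest for Mcm2 to Mcm7, control male 4 (0.17) is the highest control, and for postmitotic neuron markers control female 1 (-0.33) lies with the affected females.

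The rest of the replication machinery was mixed. Of 44 further replication factors, 7 rose and 5 fell against control females (15.9% and 11.4%, beside 13.0% and 15.0% of all genes), with a median log2 fold change of 0.13. Against control males 7 rose and 4 fell (15.9% and 9.09%, beside 9.51% and 10.7% of all genes), with a median of 0.05. Pola1, the X-linked catalytic subunit of the polymerase that extends primers, had 150, 181, 191 and 172 CPM in affected females, 87.0, 82.6, 103 and 133 CPM in control males, and 124, 90.6 and 103 CPM in control females. Its log2 fold change was 0.71 (SE 0.15, adjusted p = 0.00571, edgeR) against control females and 0.77 (SE 0.14, adjusted p = 0.00817, edgeR) against control males, with no overlap. Dnmt1, which copies DNA methylation onto new strands, had 417, 421, 516 and 505 CPM in affected females, 264, 288, 317 and 373 CPM in control males, and 384, 324 and 300 CPM in control females. It stood higher by 0.47 (SE 0.13, adjusted p = 0.0179, edgeR) against control females and 0.58 (SE 0.12, adjusted p = 0.0102, edgeR) against control males, in log2 units, and the call against control females was kept in 7 of 11 fits that left out 1 library. Top2a, the topoisomerase that untangles sister strands and whose call was kept in 6 of 11 such fits, rose by 0.47 against control males (SE 0.12, adjusted p = 0.0201, edgeR) and stood at 0.27 against control females (SE 0.13, adjusted p = 0.132, edgeR), on the log2 scale.

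Cdc7 and Orc4 fell in both comparisons. Cdc7, the kinase that triggers origins, had 92.8, 93.9, 84.1 and 83.8 CPM in affected females, 144, 169, 124 and 95.6 CPM in control males, and 146, 131 and 137 CPM in control females. It fell by 0.64 (SE 0.14, adjusted p = 0.00665, edgeR) against control females and by 0.59 (SE 0.13, adjusted p = 0.0118, edgeR) against control males, on the log2 scale. Orc4, a subunit of the origin recognition complex, fell by 0.59 (SE 0.11, adjusted p = 0.00326, edgeR) and by 0.43 (SE 0.10, adjusted p = 0.0133, edgeR) in the same comparisons.

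Of the subunits of RPA, Rpa3 fell and Rpa1 rose in both comparisons. Rpa3, the smallest, had 32.8, 33.7, 25.4 and 21.2 CPM in affected females, 58.6, 47.9, 45.6 and 36.3 CPM in control males, and 56.1, 59.8 and 63.1 CPM in control females, and fell by 1.08 (SE 0.16, adjusted p = 0.0018, edgeR) and 0.74 (SE 0.15, adjusted p = 0.0102, edgeR) on the log2 scale. Rpa3 is short, at 638 bases, and with length and GC trends removed its falls were 0.49 (SE 0.08, adjusted p = 0.0026, edgeR) and 0.25 (SE 0.08, adjusted p = 0.0362, edgeR). Rpa1, the largest subunit, named after its values were seen, rose by 0.39 (SE 0.12, adjusted p = 0.0264, edgeR) and 0.32 (SE 0.11, adjusted p = 0.0478, edgeR), while Rpa2 was not called. The Rpa1 calls were kept in 7 of 11 and 2 of 11 fits that left out 1 library, and against control males the gene was not called with length and GC trends removed (adjusted p = 0.0579, edgeR).

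Of 27 further regulators of the G1/S transition, 4 rose and 6 fell against control females (14.8% and 22.2%), with a median log2 fold change of -0.05, and E2f4 rose and 3 fell against control males, with the same median. Beside these, 13.0% and 15.0% of all genes were called higher and lower against control females. Against control males the list had 3.7% higher and 11.1% lower, beside 9.51% and 10.7% of all genes. Of the kinase inhibitors and Rb family genes on the list, a grouping made after the values were seen, Cdkn1a, Cdkn1b, Cdkn1c and Rb1 fell against control females, and Cdkn2c, Cdkn2d, Rbl1 and Rbl2 were not called in either comparison. Cdkn1a, which encodes the kinase inhibitor p21 and is activated by p53, had 2.49, 1.64, 2.24 and 2.52 CPM in affected females, 2.63, 3.41, 2.66 and 3.64 CPM in control males, and 15.3, 4.35 and 5.75 CPM in control females. It fell by 1.90 (SE 0.36, adjusted p = 0.00376, edgeR) against control females and stood at -0.47 (SE 0.37, adjusted p = 0.363, edgeR) against control males, on the log2 scale. Rb1, the retinoblastoma gene, had 44.3, 40.6, 43.3 and 46.1 CPM in affected females, 56.7, 67.1, 50.6 and 46.9 CPM in control males, and 73.7, 67.6 and 63.7 CPM in control females, and fell by 0.65 (SE 0.11, adjusted p = 0.00285, edgeR) and by 0.34 (SE 0.10, adjusted p = 0.0332, edgeR). The Rb1 call against control males was kept in 5 of 11 fits that left out 1 library.

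Cdkn1b, which encodes the kinase inhibitor p27, fell against control males by 0.31 in log2 units (SE 0.08, adjusted p = 0.0223, edgeR), with 33.5 to 36.7 CPM in affected females and 40.9 to 49.7 CPM in control males. Its call there was kept in 7 of 11 fits that left out 1 library. Its log2 fold change against control females was -0.55 (SE 0.09, adjusted p = 0.00248, edgeR), and the 3 control females were higher still, the lowest of them at 50.6 CPM. E2f2, an activating E2F factor, fell by 0.64 (SE 0.17, adjusted p = 0.0145, edgeR) against control females and 0.49 (SE 0.16, adjusted p = 0.0412, edgeR) against control males, the call there being kept in 3 of 11 such fits. E2f4, an E2F factor known mostly as a repressor, rose by 0.41 (SE 0.11, adjusted p = 0.0126, edgeR) and 0.32 (SE 0.10, adjusted p = 0.0318, edgeR) on the log2 scale, with calls kept in 9 of 11 and 6 of 11 such fits.

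Mycn and Myc, growth-promoting transcription factors, were called higher against control females and not against control males. Mycn had 129, 120, 113 and 110 CPM in affected females, 102, 86.3, 98.8 and 111 CPM in control males, and 48.4, 84.2 and 77.3 CPM in control females, with control female 1 the lowest. The log2 fold changes of Mycn were 0.75 (SE 0.15, adjusted p = 0.00424, edgeR) against control females and 0.25 (SE 0.13, adjusted p = 0.184, edgeR) against control males, and those of Myc were 0.70 (SE 0.14, adjusted p = 0.00454, edgeR) and 0.30 (SE 0.13, adjusted p = 0.0963, edgeR). Neither gene was called between control males and control females. Of 25 G2/M genes, which act after replication, 3 rose and 2 fell against control females and 6 rose against control males, with medians of 0.12 and 0.20. These are 12% and 8% of the list against control females, beside 13.0% and 15.0% of all genes, and 24% against control males, beside 9.51%.

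Gene length moved with the comparisons and is given for that reason. Genes of up to 750 bases had a median log2 fold change of -0.33 against control females and -0.29 against control males, and genes of 751 to 1500 bases -0.09 and -0.13, whereas genes of 2501 to 3500 bases stood at 0.04 and 0.01. The 15 replication genes that rose against control females had a median length of 2396 bases, against 2436 bases for the other 22, and none of the 37 was shorter than 1038 bases. The 5 genes of up to 1500 bases were Gins1, Gins2, Gins4, Pcna and Rfc4, and none of them was called. With length and GC trends removed, 15 genes rose against control females (Rpa2 in place of Mcm2) and 9 against control males (with Chaf1b and Slbp and without Mcm5), and Ccne2 fell in both. Without that removal, 13.0% and 9.51% of all genes tested were called higher in these comparisons.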

How the data were processed

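Polyadenylated RNA from the brains of 11 mouse embryos was sequenced on an Illumina HiSeq 2000 from TruSeq libraries, per the labels' protocols. The authors deposited raw whole-number counts per Entrez gene with a gene length in bases, made with featureCounts on mm10 per the submitters' processing notes. Of the aligner, the versions, the strand setting and the annotation, nothing is given in the sources used here. Groups and replicate numbers came from the sample titles. Replicates are labelled as separate embryos, and whether they share litters is not given.

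Symbols came from RefSeq for GRCm38.p6, which has the coordinates of mm10, and matched 25275 of 27179 identifiers. Genes were filtered with filterByExpr (14542 kept), scaled by TMM and tested with edgeR 4.0.16 (R 4.3.3) in 1 quasi-likelihood fit of all 11 libraries with group as the only factor, with Benjamini-Hochberg adjustment over all genes and a threshold of 0.05. The biological coefficient of variation was 11.9%. SEs were obtained by dividing the absolute log2 fold change by the root of its F statistic. CPM and RPKM were computed from the counts, RPKM with the deposited length, and centred log2 CPM used a prior count of 2. The difference between the comparisons of affected females is the contrast of control males with control females. The procedure was tested on simulated counts.

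The 37 genes, the other lists and the promoter words were chosen with earlier results of these data known. All 37 genes could be named. Those called in a comparison of affected females are given by embryo. Of the other replication and G1/S lists, called genes with the 5 largest fold changes per comparison were named, and Cdkn1a, Gmnn, Dnmt1, Mycn and Top2a always. Pold2, Rfc1 and Rpa1 were named after their values were seen. Exon overlaps and pseudogenes came from GENCODE vM21. The alternatives comprised RLE scaling, autosomal TMM, other filters, DESeq2 1.42.0, voom with sample weights (limma 3.58.1), robust fitting, fits of only the groups compared, the replicate number as a block, and omission of each library. Removal of length and GC trends, with GC known for 90.9% of tested genes and all 37 members, and omission of control female 1 with control male 4 were added after seeing the data.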

Additional observations from a re-analysis of the deposited data

Results flagged for a closer look

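Among the 37 genes, groups of 4 embryos were examined for a sample far from the others, and 1 of 74 groups held one. Affected female 3 had an Orc1 level of 63.4 CPM, against 58.3 to 59.0 CPM in the other affected females, and this gap took up 0.861 of the group's range, above Dixon's critical value at the 95% level. Chance marks about 1 in 20 such groups. Orc1 was not called in any comparison.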

How the results depend on the processing

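The median log2 fold change of the 37 genes kept its sign and moved by less than the spread between embryos under the 22 alternatives, from 0.21 to 0.28 for affected females against control females, 0.10 to 0.21 against control males, and 0.04 to 0.12 for control males against control females. No called gene reversed. All 25 calls were kept with RLE scaling, autosomal TMM, the 1 CPM filter, DESeq2, voom and robust fitting. They were also kept without control female 1 and control male 4. That pair was chosen in part by Mcm2 to Mcm7 values, so its omission is no check on those calls. The counts moved more. Against control females, the number of genes called was 7639 with voom and 1663 to 4957 leaving out 1 library, and the number of the 37 genes called was 4 to 22 leaving out 1 library. Against control males, genes called were 6397 with voom, 6014 without control female 1 and control male 4, and 361 to 5140 leaving out 1 library. Of the 37 genes, 14 were called there with DESeq2, 25 with voom (18 higher and 7 lower), 21 without the pair, and 1 to 20 leaving out 1 library. Control males against control females gave 43 genes with DESeq2, 1569 with voom and 18 to 35 leaving out 1 library, and 3 of the 37 genes with voom. The cause of these moves was not tested, beyond the smaller number of embryos where libraries were left out. Same-numbered embryos did not deviate together (correlations of -0.14 to 0.18), so the replicate numbers were not taken as pairs. With the replicate block, 10 of the 37 genes were called against control females (9 higher and 1 lower) and 12 against control males, and 18 of 25 calls were kept. Without the block, 28.0% and 20.2% of all genes tested were called in these comparisons. Calls of low fold, such as Cdt1, Rrm2 and Slbp, and the call of Ccne1 (0.35, SE 0.12), are near the limit of what 3 or 4 embryos a group can show.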
